A study of Mus musculus with 10 samples.

Results

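A set of 10 genes of cartilage, bone and calcification control was followed in the young and the old mouse aorta. They were taken by symbol from a list of osteochondrogenic factors and inhibitors of vascular calcification, and all 10 were found among the 55453 symbols of the count table. They are Sox9 and Runx2, which encode transcription factors; Bmp2 and Bmp4, which encode secreted growth factors; Acan, Chad and Spp1, which encode matrix proteins; and Mgp, Alpl and Enpp1, whose products act on mineral deposition. RNA was sequenced from whole aortae of male C57BL/6 mice, 5 aged 14.5 weeks (young) and 5 aged 92.5 weeks (old), with 1 library per mouse. No genotype, transgene or drug distinguished the groups, both were killed at the same time, and fat around the vessel had been removed. An aorta sampled in this way still holds smooth muscle cells, endothelium, adventitial fibroblasts and resident immune cells, so that a count could not be assigned to a cell type, and more cells of a type and more RNA per cell cannot be told apart.

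The artery wall shares much of its developmental toolkit with the skeleton. BMP ligands bind receptor kinases that activate SMAD proteins, SOX9 switches on cartilage matrix genes such as Acan and Col2a1, and RUNX2 switches on genes of bone-forming cells such as Ibsp and Spp1. Mineral growth is held back by matrix Gla protein (Mgp), which depends on vitamin K, and by pyrophosphate, which the ENPP1 enzyme makes and which tissue-nonspecific alkaline phosphatase (Alpl) breaks down. Osteopontin (Spp1) binds mineral and integrins and is also made by activated macrophages. Arteries that calcify are known to take up parts of this program.

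Upstream promoter sequence from RefSeq (build GRCm38.p6) was matched to 7 of the 10 genes by symbol, and Sox9, Bmp2 and Mgp had no entry. It is shown for 4 genes: the bone regulator Runx2, Spp1, whose counts differed by the largest fold of the 10, Acan, which rose, and Chad, whose counts were the lowest of the 10 in old aortae. Each line gives the 250 bases before the annotated start site, 5′ to 3′ on the gene's strand. Capitals mark the RUNX letters TGTGGT, read on the opposite strand as ACCACA, and the TATA box letters TATAAA.
Runx2, chr17:44814628-44814877, minus strand: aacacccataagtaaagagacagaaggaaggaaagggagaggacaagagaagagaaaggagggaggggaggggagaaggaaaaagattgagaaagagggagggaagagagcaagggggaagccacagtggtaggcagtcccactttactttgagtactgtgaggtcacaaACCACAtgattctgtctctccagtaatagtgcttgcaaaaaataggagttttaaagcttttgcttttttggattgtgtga
Spp1, chr5:104434861-104435110, plus strand: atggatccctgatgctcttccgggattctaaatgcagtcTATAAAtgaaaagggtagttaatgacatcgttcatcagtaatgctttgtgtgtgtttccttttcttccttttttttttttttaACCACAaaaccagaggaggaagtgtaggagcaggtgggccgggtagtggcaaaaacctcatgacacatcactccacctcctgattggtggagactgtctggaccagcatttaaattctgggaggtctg
Acan, chr7:79052976-79053225, plus strand: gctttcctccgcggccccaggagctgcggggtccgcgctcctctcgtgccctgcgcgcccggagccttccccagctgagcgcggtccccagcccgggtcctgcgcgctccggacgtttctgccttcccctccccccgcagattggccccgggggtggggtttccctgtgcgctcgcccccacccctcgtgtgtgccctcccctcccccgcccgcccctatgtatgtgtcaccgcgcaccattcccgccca
Chad, chr11:94564797-94565046, plus strand: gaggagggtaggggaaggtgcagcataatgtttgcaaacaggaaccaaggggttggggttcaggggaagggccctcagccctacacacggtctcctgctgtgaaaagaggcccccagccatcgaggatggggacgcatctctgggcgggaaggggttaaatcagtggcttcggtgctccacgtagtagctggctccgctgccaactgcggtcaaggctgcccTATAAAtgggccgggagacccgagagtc

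The letters were searched on both strands in windows of 250 bases before to 50 bases after each start. The Runx2 window held TGTGGT 3 times, at 80 bases before the start and at 23 and 31 bases after it, and the first Spp1 window held it 1 time, at 128 bases before the start. The window of Enpp1 held it 1 time, at 144 bases before the start. Of all 32851 promoter windows, 16.8% held these letters. TATAAA, held by 13.6% of all windows, lay 28 bases before the start of Chad and 211 bases before the first Spp1 start. The Acan window was rich in G and C (74.0%, with 31 CpG pairs) against medians of 52.7% and 7 CpG pairs over all windows, and held none of the letters searched. The SOX letters CATTGT (12.6% of all windows) were in none of the 9 windows of the 7 genes, and the SMAD letters GGCGCC (11.9%) were in 1 Alpl window, 66 bases before its start. TATAAA was also in the other Alpl window, 192 bases before its start. A match of letters is a description of the window and not a binding site.

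Library totals ran from 19640401 to 22886153 counts, and mitochondrial genes took 4.50% to 6.51% of them in 9 libraries and 11.0% in old replicate 2. Markers of smooth muscle, the tissue's main cell type, were all tested and summed to 736475 to 945758 normalized counts, with groups that overlapped. Adipocyte markers still summed to 2461 to 9378 normalized counts in young and 1415 to 3555 in old aortae. Skeletal muscle markers summed to 156 to 1002 in young and 169 to 232 in old aortae. Normalized counts here are counts divided by DESeq2 size factors, and every mean is given with the SD over 5 mice. Young and old were compared with the quasi-likelihood test of edgeR, with Benjamini-Hochberg adjustment over all 14614 genes that passed the filter on low counts, and a gene is called higher or lower where the adjusted p was below 0.05.

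All 10 genes passed the filter. Sox9, Runx2, Acan and Mgp rose in old aortae, so that 4 of 10 were called higher where 6.48% of all tested genes were. Bmp4 fell, as 1 of 10 called lower where 4.99% of all tested genes were. The other 5 genes, Bmp2, Spp1, Alpl, Enpp1 and Chad, were not called. For the 4 genes that rose, all 5 old aortae lay above all 5 young ones, as for 5.37% of all tested genes, while for none of the 10 did all 5 old aortae lie below all 5 young ones, which held for 4.55% of tested genes. The median log2 fold change of old over young was 0.42 over the 10 genes and 0.003 over all tested genes, and the median absolute log2 fold change was 0.70 and 0.14, respectively.

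**Figure D1:**
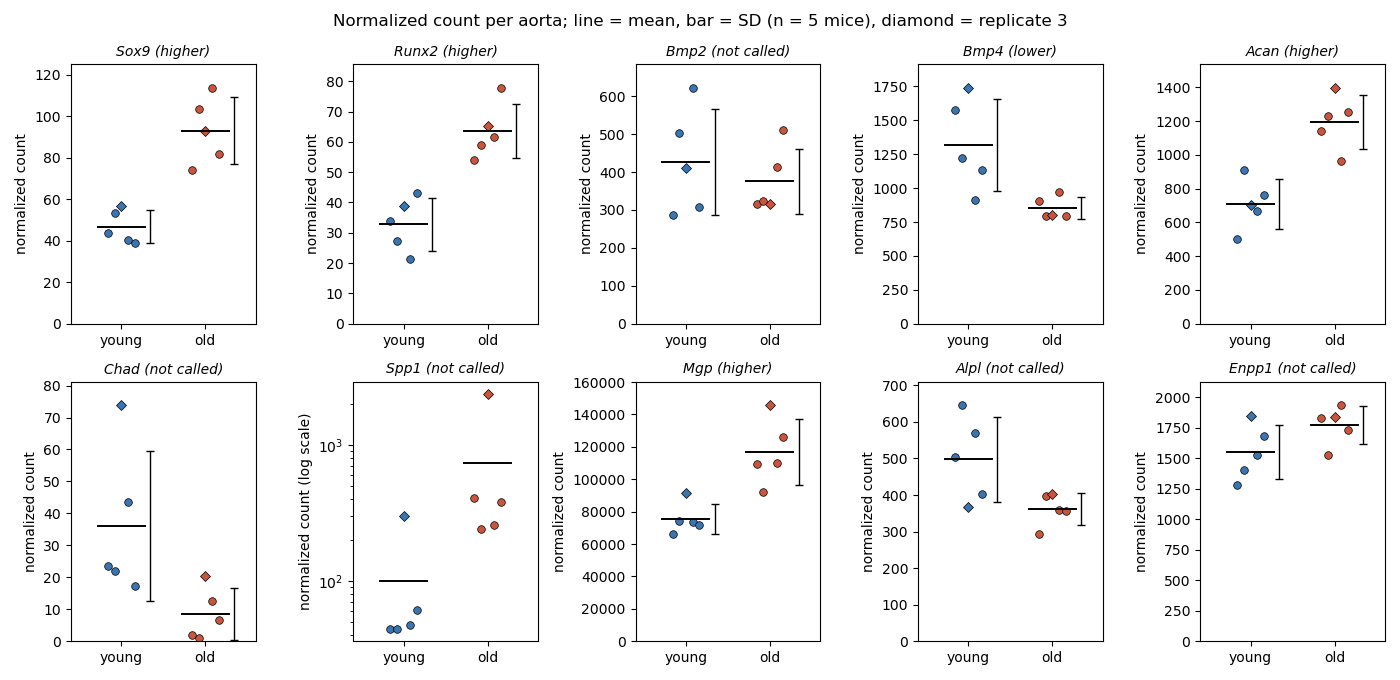
Normalized count of each of the 10 genes (vertical axes from 0, except the log axis of Spp1) in 5 young and 5 old aortae, with the mean as a line, the SD as a bar where the axis is linear, and replicate 3 of each group as a diamond. Sox9, Runx2, Acan and Mgp have no overlap between the groups, and the 2 diamonds of Spp1, at 301 and 2383, lie far above the other points of their groups.

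Sox9, the master regulator of cartilage formation, was a low-level transcript (chr11:112782224-112787760, plus strand, GRCm38). Its normalized counts in young replicates 1 to 5 were 44.0, 53.3, 56.8, 40.6 and 38.9. In old replicates 1 to 5 they were 74.0, 103.5, 93.2, 113.8 and 81.7. Every old aorta was above the highest young aorta, and the mean went from 46.7 ± 7.94 to 93.2 ± 16.1, which was 1.00 ± 0.17 (SE) on the log2 scale (edgeR adjusted p = 0.00259).

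Runx2, the regulator needed for osteoblast formation, had the lowest level per length of the 10 genes in young aortae (chr17:44495987-44814797, minus strand). The 5 young aortae had 33.7, 27.2, 38.9, 21.2 and 43.0 normalized counts, in replicate order. The 5 old aortae had 54.0, 58.8, 65.2, 61.7 and 77.8. The groups were apart, and the rise was 0.96 ± 0.20 on the log2 scale (edgeR adjusted p = 0.00921), from a mean of 32.8 ± 8.77 to 63.5 ± 8.98. An antisense gene, Runx2os1, overlapped 5.87% of its exonic sequence and had 7 counts over all young and 8 over all old libraries. The Runx2 to Sox9 count ratio had a median of 0.684 in young and 0.700 in old aortae, with overlapping values. Leaving out young replicate 1 or 5, or old replicate 2 or 4, turned the small mean log2 difference of this ratio (-0.0093) positive, to between 0.030 and 0.16.

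Acan encodes aggrecan, the large proteoglycan that gives cartilage its stiffness (chr7:79053483-79115099, plus strand). Young replicates 1 to 5 had 503, 910, 704, 669 and 760 normalized counts. Old replicates 1 to 5 had 1141, 1228, 1396, 963 and 1253. The lowest old aorta, replicate 4, was just above the highest young aorta, replicate 2. The mean rose from 709 ± 147 to 1196 ± 159, or by 0.76 ± 0.14 on the log2 scale (edgeR adjusted p = 0.00526).

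Mgp encodes the matrix Gla protein, an inhibitor of artery calcification that smooth muscle cells are known to secrete (chr6:136872435-136875823, minus strand). It ranked 15 of 14614 tested genes by mean normalized count. The young aortae, replicates 1 to 5, had 66464, 73956, 91436, 73822 and 71646 normalized counts. The old aortae had 109689, 91845, 145555, 109873 and 126373. The groups were apart only narrowly, with old replicate 2 (91845) next to young replicate 3 (91436), while the other 4 young aortae lay at or below 73956. The rise of the mean, from 75465 ± 9429 to 116667 ± 20247, was 0.64 ± 0.12 on the log2 scale (edgeR adjusted p = 0.00486). The calls of Sox9, Runx2, Acan and Mgp held when any 1 library was left out.

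Bmp4, a ligand of the BMP type made in the vessel wall and by many embryonic tissues, was the one gene of the 10 called lower (chr14:46383520-46390669, minus strand). The log2 fold changes of Bmp2, Alpl and Chad were also negative, and these genes were not called. Its normalized counts in young replicates 1 to 5 were 1578, 1225, 1739, 911 and 1131. In old replicates 1 to 5 they were 905, 791, 802, 975 and 793. The groups overlapped through young replicate 4, which was below old replicate 4. The mean fell from 1317 ± 337 to 853 ± 82.9, a log2 fold change of -0.62 ± 0.16 (edgeR adjusted p = 0.0280). The young aortae had the larger spread, with a coefficient of variation of 25.6% against 9.72% in old aortae. The call was lost without old replicate 2 (adjusted p = 0.0612), without old replicate 3 (adjusted p = 0.0706) and without old replicate 5 (adjusted p = 0.0651), also with edgeR.

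Bmp2, the sister ligand long used to induce bone, was not called (chr2:133552159-133562885, plus strand). Young aortae had 286 to 622 normalized counts (median 412) and old aortae 316 to 510 (median 323). The log2 fold change was -0.17 with a 95% confidence interval from -0.67 to 0.32 (edgeR adjusted p = 0.675), and it was 0.00052 without young replicate 4, the highest of the 10 libraries. The ratio of Bmp2 to Bmp4 counts had a median of 0.273 in young and 0.408 in old aortae, with overlapping values.

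Spp1 encodes osteopontin (chr5:104435118-104441050, plus strand) and had the largest difference and the largest spread of the 10 genes. Its normalized counts in young replicates 1 to 5 were 44.0, 44.3, 301, 47.3 and 61.5. In old replicates 1 to 5 they were 410, 242, 2383, 257 and 382. Apart from young replicate 3, each young aorta was below each old one, while young replicate 3 lay above 2 of the old aortae, and old replicate 3 lay far above all the others. The mean was 99.6 ± 113 in young and 735 ± 924 in old aortae, and the log2 fold change of 2.89 ± 0.89 had a 95% confidence interval from 0.88 to 4.90 and did not pass the test (edgeR adjusted p = 0.0690). Without young replicate 3 the log2 fold change was 3.91 (adjusted p = 0.0305) and without old replicate 3 it was 1.70 (adjusted p = 0.139). With both of these libraries left out, an alternative chosen after their Spp1 counts were seen, it was 2.72 (edgeR adjusted p = 3.55e-05). An unnamed gene model, Gm42793, overlapped 18.8% of the exonic sequence of Spp1 and had 2 counts over all young and 6 over all old libraries.

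The libraries with high Spp1 also stood out in other genes of the set. Mgp and Chad were highest in replicate 3 of each group, as was Col2a1, the collagen chain typical of cartilage, with 29.9 normalized counts in young replicate 3 against 2.04 to 5.79 in the other young aortae, and 116 in old replicate 3 against 9.81 to 37.0 in the other old aortae. Col2a1 had 46 counts over all young and 219 over all old libraries, so that it passed the filter mostly through the old group. It did not pass the test, with a log2 fold change of 2.19 (edgeR adjusted p = 0.108). Markers of macrophages, which can make osteopontin, were summed for each aorta over 9 genes. Of these, 6 were called higher, where 6.48% of all tested genes were. The sum was 8948 to 11152 normalized counts in young aortae, 22609 in old replicate 3 and 11997 to 14271 in the other old aortae. Young replicate 3, at 10443, lay within the range of the other young aortae, unlike its Spp1 count. The marker sums of young and old aortae did not overlap (exact permutation test, two-sided, p = 0.0079, the smallest that 5 against 5 mice can give, adjusted p = 0.0317 over 12 marker lists). Old replicate 3 was also highest in the summed lymphocyte markers (282, against 37.0 to 86.1 in the other old aortae) and cardiac muscle markers (1601, against 550 to 840). It was lowest in the endothelial markers (9886). Among the old aortae it was also lowest in the Schwann cell markers (615, against 740 to 972 in the others). In the smooth muscle, fibroblast, adipocyte, skeletal muscle and blood sums it was neither highest nor lowest. The part of macrophage content in the Spp1 counts was not tested.

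**Figure D2:**
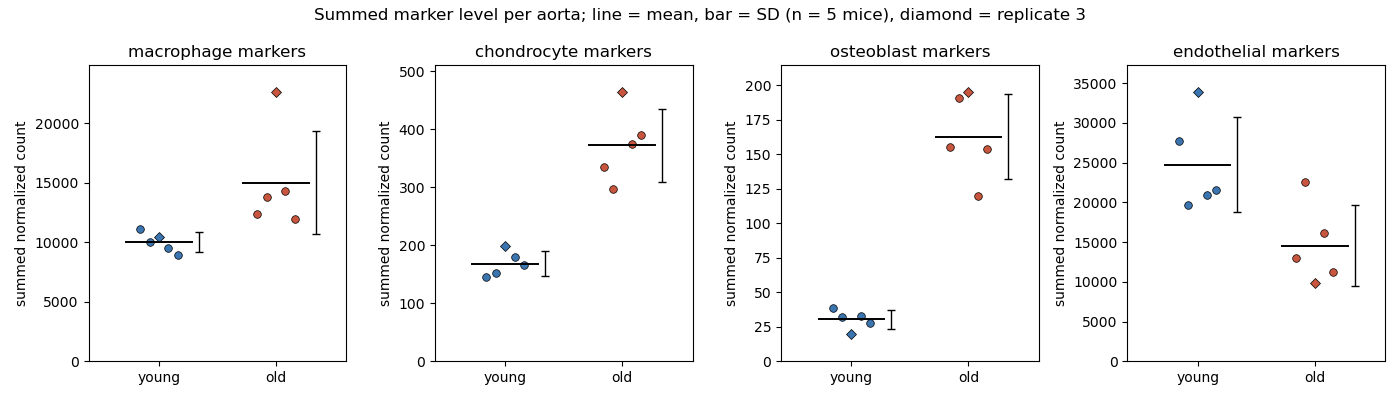
Summed normalized count of 4 marker lists in each aorta (vertical axes from 0), with the mean as a line, the SD as a bar and replicate 3 of each group as a diamond. The macrophage, chondrocyte and osteoblast sums are higher in each old aorta than in any young one, and old replicate 3 is highest in these 3 panels. Most of the chondrocyte sum is the gene Hapln1, and most of the old osteoblast sum is the gene Ibsp.

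Chad encodes chondroadherin, a leucine-rich cartilage protein that binds integrins (chr11:94565047-94569127, plus strand). It was detected with 17 to 74 reads per young library and 1 to 22 per old library, so that it passed the filter only through the young group. Normalized counts in young replicates 1 to 5 were 23.5, 22.1, 73.8, 43.5 and 17.4. In old replicates 1 to 5 they were 2.00, 1.09, 20.5, 12.5 and 6.81. The groups overlapped between old replicate 3 and young replicate 5. The log2 fold change of -2.02 ± 0.60 did not pass the test (edgeR adjusted p = 0.0512), and it passed without old replicate 3 (-2.63, adjusted p = 0.0254), without young replicate 1 (-2.14, adjusted p = 0.0452) and without young replicate 5 (-2.20, adjusted p = 0.0490). With DESeq2, the tool of the paper, Chad was called lower (-2.06, DESeq2 adjusted p = 0.00785). The paper lists it among its downregulated genes.

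Alpl and Enpp1 act in opposite directions on pyrophosphate, and neither was called. Alpl (chr4:137741733-137796384, minus strand) had 367 to 645 normalized counts in young aortae (median 505) and 294 to 403 in old aortae (median 360). Its log2 fold change was -0.45 with a 95% confidence interval from -0.77 to -0.13 (edgeR adjusted p = 0.0699), and it passed without young replicate 3 (adjusted p = 0.0245) and without young replicate 5 (adjusted p = 0.0495). Enpp1 (chr10:24637914-24712159, minus strand) had 1286 to 1845 normalized counts in young aortae (median 1525) and 1532 to 1935 in old aortae (median 1836), a log2 fold change of 0.20 with an interval from -0.0013 to 0.41 (edgeR adjusted p = 0.190). The Alpl to Enpp1 count ratio was 0.393, 0.459, 0.199, 0.374 and 0.238 in young replicates 1 to 5. It was 0.160, 0.260, 0.219, 0.186 and 0.205 in old replicates 1 to 5. The median of the ratio was lower in old aortae, at 0.205 against 0.374, and the groups overlapped through young replicates 3 and 5.

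**Figure D3:**
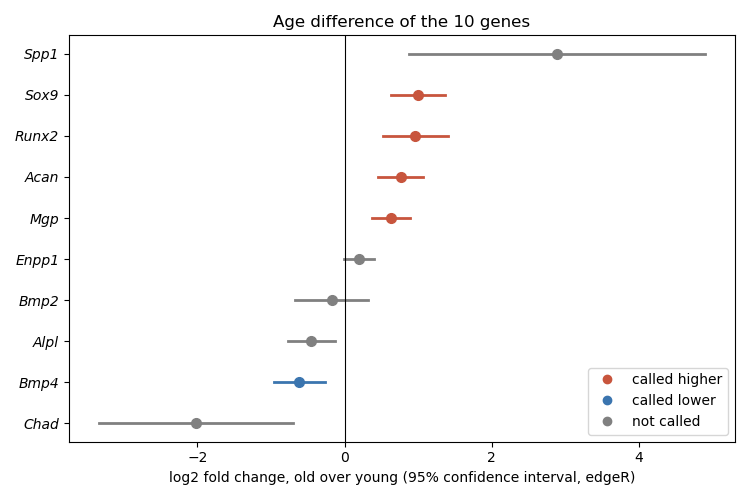
Log2 fold change of old over young aortae (horizontal axis) with its 95% confidence interval from edgeR for each of the 10 genes, colored by call. The 4 genes called higher range from 0.64 to 1.00, Bmp4 is the only one called lower at -0.62, and Spp1 and Chad have the widest intervals.

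Levels were compared between genes only per length, as normalized counts per kb of exonic sequence. Mgp stood far above all others, with 63576 per kb in young and 98287 per kb in old aortae. In young aortae Bmp4 followed with 586 per kb and then Enpp1 with 151 per kb, each apart from the gene above it. From Enpp1 down to Sox9, through Alpl, Bmp2, Acan, Spp1 and Chad, each gene overlapped its neighbour in the order, and Runx2 came last with 3.71 per kb, apart from Sox9. In old aortae Spp1 came second with 446 per kb, a mean that rests on old replicate 3 (1446 per kb against 147 at the lowest) and overlaps that of Bmp4 (380 per kb). Enpp1, Acan, Bmp2 and Alpl followed at 173 to 89.7 per kb, each overlapping the next, then Sox9 at 22.5 per kb and Runx2 at 7.19 per kb, each apart from the gene above it, and Chad was last with 5.11 per kb, overlapping Runx2.

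**Figure D4:**
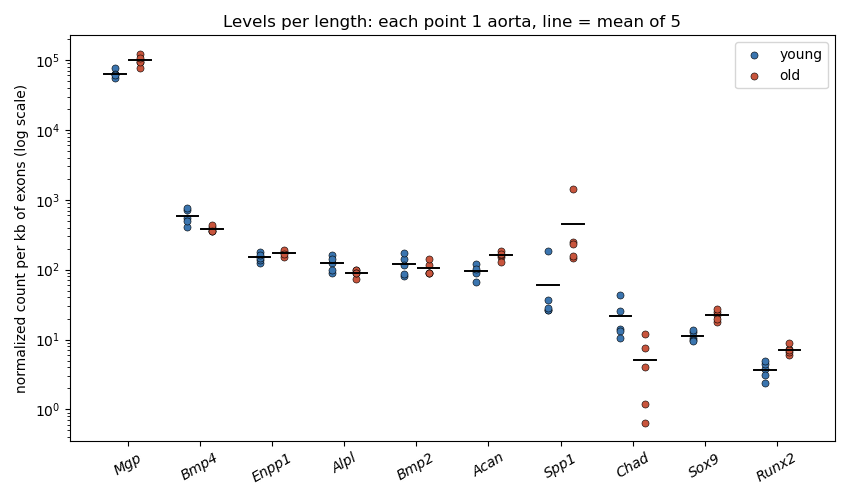
Normalized count per kb of exons (log axis) of the 10 genes, ordered by the mean of the young aortae, with 1 point per aorta and a line at the mean of 5. Mgp lies above all other genes in both groups, and the means of Chad are 21.5 in young and 5.11 per kb in old aortae where those of Sox9 are 11.3 and 22.5 per kb.

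The other genes of these pathways were drawn from 7 lists with 126 genes, of which 105 were tested. Of these, 12 were called higher, where 6.48% of all tested genes were, and 17 lower, where 4.99% of all tested genes were. The median log2 fold change was -0.14, against 0.003 over all tested genes. The same shares over all tested genes stand beside the counts of each list below. The number called higher was 6 without old replicate 3, 7 without old replicate 5 and 5 without young replicate 4. Of these 29 calls, 18 held when any 1 library was left out, 5 of the 12 higher and 13 of the 17 lower, and the libraries on which the others depended are given beside them. All adjusted p-values below are from edgeR with Benjamini-Hochberg adjustment.

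In the BMP pathway the called genes outside the antagonists fell. Of 17 tested ligands, receptors and signal-transducing SMADs, 3 were lower and none higher (all tested genes: 4.99% and 6.48%). Their median log2 fold change was -0.14. The number called higher was 1 with DESeq2, with limma-voom and with a correction for GC content and length. It was also 1 with scaling by library size alone or by the upper quartile, without old replicate 2 or without young replicate 5. Without old replicate 2, 5 were lower. The ligand Bmp6 went from 1887 ± 362 to 859 ± 225 normalized counts (log2 fold change -1.13, adjusted p = 0.00403). The SMAD that BMP receptors activate, Smad1, fell by 0.53 (703 ± 77.5 to 484 ± 21.8, adjusted p = 0.00100), and Acvrl1, the endothelial ALK1 receptor, fell by 0.23 (adjusted p = 0.0412). The call of Acvrl1 held without old replicate 2 or 4, and was lost without any other library and with scaling by library size alone or by the upper quartile. Of 10 tested BMP target genes, 3 were lower and none higher (all tested genes: 4.99% and 6.48%), with a median of -0.26. The lower ones were Id1, an inhibitor of helix-loop-helix factors, at -0.60 (1742 ± 291 to 1143 ± 86.4, adjusted p = 0.00282), its relative Id3 at -0.31 (adjusted p = 0.0315), and the pseudoreceptor Bambi at -0.90 (976 ± 205 to 522 ± 61.6, adjusted p = 0.00154). The call of Id3 held without old replicate 3 or young replicate 1 and was lost without any other library. Of 11 tested antagonists, 1 was higher and 1 lower (all tested genes: 6.48% and 4.99%), with a median of -0.09. The secreted Chrdl1 rose from 1917 ± 229 to 3107 ± 391 normalized counts (log2 fold change 0.70, adjusted p = 0.000799). The number of antagonists called lower was 0 without old replicate 1, 2, 3 or 5 or young replicate 4 or 5, and 2 without young replicate 1, and the number called higher was 2 without young replicate 3. The endothelium makes much of the BMP6 and ALK1 of a vessel, and the summed endothelial markers were 19666 to 33864 normalized counts in young and 9886 to 22629 in old aortae (exact permutation test, two-sided, p = 0.0317, adjusted p = 0.0952). The part of endothelial content in these changes was not tested.

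Of 16 tested cartilage matrix and chondrocyte genes, 3 were higher and 1 lower (all tested genes: 6.48% and 4.99%). Their median log2 fold change was 0.23. The number called higher was 1 without old replicate 3 or 4 or young replicate 4 or 5. Hapln1, the link protein that ties aggrecan to hyaluronan, rose from 120 ± 17.6 to 281 ± 37.6 normalized counts (log2 fold change 1.23, adjusted p = 8.20e-05). Comp, a pentameric cartilage protein, rose by 0.46 (adjusted p = 0.0320) and Pth1r, the parathyroid hormone receptor, by 0.47 (adjusted p = 0.0244). Pth1r lost its call without these 4 libraries, each left out in turn, and Comp without old replicate 3, 4 or 5 or young replicate 1, 3, 4 or 5. Cilp2, a cartilage intermediate layer protein, fell (62.1 ± 16.4 to 20.9 ± 6.34, log2 fold change -1.55, adjusted p = 0.00186). The list held 7 genes under the filter, among them Matn1 with 4 counts, Cnmd with 2, Ucma with none and Col9a1 with 29 over all 10 libraries, while Col2a1 had 265, Matn3 154 and Col9a3 145. The sum of 10 chondrocyte markers was 145 to 198 normalized counts in young and 297 to 464 in old aortae (exact permutation test, two-sided, p = 0.0079, adjusted p = 0.0317), and Hapln1 was the only one of its 4 tested genes that was called. Most of the sum was Hapln1 in both groups, with a mean of 120 out of 168 in young and 281 out of 373 in old aortae.

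Of 14 tested bone matrix and osteoblast genes, 4 were higher and 4 lower (all tested genes: 6.48% and 4.99%). Their median log2 fold change was -0.05. The number called higher was 2 without old replicate 3 or 5 or young replicate 4 or 5. Ibsp, the bone sialoprotein that like osteopontin binds mineral and integrins, rose from 16.3 ± 1.98 to 141 ± 31.9 normalized counts (log2 fold change 3.12, adjusted p = 1.87e-06). Ibsp had 13.0 to 18.1 normalized counts in the young and 101 to 175 in the old aortae, and unlike Spp1 it was not high in young replicate 3 (13.0). Tnfrsf11b, the osteoprotegerin that blocks osteoclast formation, rose by 1.44 (665 ± 195 to 1799 ± 395, adjusted p = 0.00140). Phex, a peptidase of phosphate control, rose by 0.51 (adjusted p = 0.0342), a call lost without old replicate 3, 4 or 5 or young replicate 4 or 5. The matrix genes of bone that many connective tissues share were lower, as Sparc (osteonectin) fell by 0.96 (adjusted p = 0.000180), Col1a1 by 0.91 (adjusted p = 0.00277) and Col1a2 by 0.75 (adjusted p = 0.00282). Sost, the Wnt inhibitor sclerostin, fell from 22605 ± 3464 to 15357 ± 2381 (log2 fold change -0.55, adjusted p = 0.0117). The osteocalcin genes Bglap, Bglap2 and Bglap3 had 5, 5 and 3 counts over all libraries and Mepe had none. Tnfsf11, the osteoclast factor RANKL, was under the filter with 18 counts, all in old aortae. The sum of 5 osteoblast markers was 19.9 to 38.8 in young and 120 to 195 in old aortae (exact permutation test, two-sided, p = 0.0079, adjusted p = 0.0317), and most of the old sum was Ibsp.

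Of 17 tested genes of pyrophosphate, phosphate and vitamin K handling, 3 were higher and 2 lower (all tested genes: 6.48% and 4.99%). Their median log2 fold change was -0.03. The number called higher was 1 without old replicate 5 or young replicate 4, and the number called lower was 1 without young replicate 5. Ank, which exports pyrophosphate or ATP, rose by 0.33 (2264 ± 194 to 2828 ± 332, adjusted p = 0.0227), a call lost without old replicate 5 or young replicate 4. Nt5e, the ectonucleotidase CD73 that makes adenosine and phosphate, fell by 1.24 (255 ± 110 to 107 ± 24.1, adjusted p = 0.0131), and Enpp3, a relative of Enpp1, fell by 0.27 (adjusted p = 0.0197), a call lost without young replicate 5. Fetub and Ahsg, fetuins mainly made by the liver, were higher, Fetub at 22.3 ± 1.53 against 101 ± 52.8 (log2 fold change 2.19, adjusted p = 0.000829) and Ahsg at 0.82 (adjusted p = 0.0472). The call of Ahsg was lost without any library other than old replicate 4. Kl, the klotho gene of phosphate control, was under the filter with 62 counts and Fgf23 with 2.

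Of 20 tested receptors and proteases of osteopontin, chondroadherin and aggrecan, 1 was higher and 3 lower (all tested genes: 6.48% and 4.99%). Their median log2 fold change was -0.27, and 6 were lower without young replicate 1. The integrin subunits Itgb3 and Itga4, partners of osteopontin, fell by 0.42 (adjusted p = 0.00898) and 0.71 (adjusted p = 0.00252). Adamts4, an aggrecanase, fell from 78.9 ± 13.5 to 35.8 ± 10.4 normalized counts (log2 fold change -1.13, adjusted p = 0.00565), while its substrate Acan rose. The listed proteases Adamts1 (10584 ± 2981 to 6948 ± 1824, adjusted p = 0.131) and Adamts5 (2014 ± 279 to 1729 ± 158, adjusted p = 0.157) had higher counts and were not called. Adamts9 (adjusted p = 0.272) and Adamts15 (adjusted p = 0.402) were also above Adamts4 and not called. Cleavage of aggrecan was not tested. Vcan, the aggrecan relative versican, rose by 0.42 (adjusted p = 0.0448), a call lost without old replicate 1, 2, 3 or 4 or young replicate 2, 3 or 4 and without the low-count filter.

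**Figure D5:**
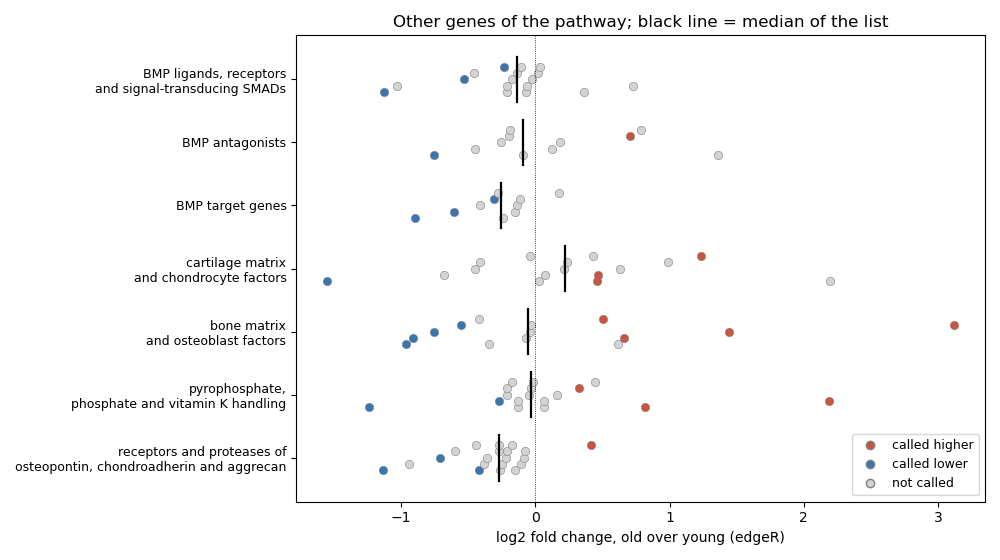
Log2 fold change of old over young (horizontal axis) of the 105 tested genes in 7 lists, colored by call, with the median of each list as a black line. The 3 called BMP ligand, receptor and SMAD genes and the 3 called BMP targets lie below 0, the 4 and 4 called bone genes lie on both sides, and Ibsp is the point at 3.12.

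The genes whose counts varied most like each of the 10 were read from log2 normalized counts over the 10 mice after the mean of each age group was removed. The points share library depth and composition, and the 3 highest of 14613 values were taken for each gene, so they are a description. Spp1 varied most like Ttc9 (Pearson r = 0.98), Vcam1, an adhesion molecule of activated endothelium (r = 0.95), and Galk2 (r = 0.95). Mgp varied most like Ccdc115 (r = 0.95), Fxyd5 (r = 0.94) and Mageh1 (r = 0.94), and Acan most like the chloride channel gene Ano1 (r = 0.96), Gm9625 (r = 0.92) and Prelid3a (r = 0.91). For Sox9 they were Slc25a40 (r = 0.91), Gphn (r = 0.90) and Lrch2 (r = 0.89), and for Runx2 they were Agap2 (r = 0.94), Zfp37 (r = 0.92) and Med28 (r = 0.91). For Bmp2 they were Rnf34, Bcl10 and Pop4 (r = 0.95 to 0.94), and for Bmp4 they were Serpinb9, Gnptab and Snx30 (r = 0.95 to 0.92). For Alpl they were Smyd2, Mmp19 and Fbxw5 (r = 0.95 to 0.91), for Enpp1 Atp1b3, Tmx4 and Nipa2 (r = 0.97 to 0.95), and for Chad Snx4, Ggh and Nim1k (r = 0.96 to 0.94).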

How the data were processed

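Poly(A) RNA of 10 aortae was sequenced from stranded libraries. Per the labels and the paper's methods, the authors trimmed reads with fastp 0.20.0, aligned them with STAR 2.7.0f to GRCm38 with GENCODE M22, and counted them per gene with featureCounts of Subread 1.6.4. The deposited values are raw counts, with no normalization. The strand setting of the counting is not given in the sources used here. Ages and groups were taken from the labels.

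Genes were filtered with filterByExpr and compared with edgeR 4.0.16 (TMM scaling, robust quasi-likelihood F test, R 4.3.3), with Benjamini-Hochberg adjustment over 14614 genes. The SE is the absolute log2 fold change over the square root of F. Normalized counts used size factors of DESeq2 1.42.0. Positions and exonic lengths are from GENCODE M21 on GRCm38. Tests were checked on simulated data. Alternatives were DESeq2, limma-voom (limma 3.58.1), other scalings and filters, a GC and length correction, a replicate block and leaving out each library. The 10 genes and all gene lists were chosen with earlier results of these data known. Genes were named by rule: all 10, up to 4 called genes per list and direction with the smallest p, defining genes under the filter, and the 3 most alike genes of each. Col2a1, Adamts1, Adamts5, Adamts9 and Adamts15 were named after their values were seen. Some genes that the rule names are not reported here. Marker sums were compared with exact permutation tests over the 252 assignments of 10 mice, adjusted over 12 lists. The other marker lists gave adjusted p of 0.360 (smooth muscle), 0.321 (fibroblast), 0.177 (adipocyte), 0.127 (cardiac muscle), 0.866 (skeletal muscle), 0.581 (Schwann cell), 0.127 (lymphocyte) and 0.984 (blood). Each mouse gave 1 library, so the spread is that between mice.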

Additional observations from a re-analysis of the deposited data

Results flagged for a closer look

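In 28 groups of 5 values, the gap between the highest or lowest aorta and its nearest neighbour was set against the whole range of the group, and 5 exceeded Dixon's 95% limit of 0.71. Chance passes that limit in about 1 in 20 groups. Spp1 passed it in each age group, with 301 normalized counts in young replicate 3 and 2383 in old replicate 3, each the highest of its group. The count ratio of Spp1 to Mgp, per 1000 Mgp counts, passed it in the same libraries, at 3.29 in young replicate 3 (0.599 to 0.858 in the other young aortae) and 16.4 in old replicate 3 (2.34 to 3.74 in the other old aortae). The ratio of Bmp2 to Bmp4 counts was 0.643 in old replicate 5, against 0.350 to 0.425 in the other old aortae.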

How the results depend on the processing

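The log2 fold changes and counts of calls were recomputed under 19 alternatives and 1 more chosen after seeing the data (replicate 3 of each group left out), of which DESeq2 gave no adjusted p for Spp1. The ratios were recomputed with 1 library left out, and the marker sums also with counts scaled to library size. Sox9, Runx2, Acan and Mgp kept direction and call under all 20, with highest adjusted p of 0.00928, 0.0279, 0.0314 and 0.0158 (edgeR, DESeq2 or limma-voom). Of the 10 genes, 4 to 5 were called higher with 1 library left out. Those called lower numbered 3 with DESeq2, 3 with the GC and length correction, 2 with limma-voom, 0 without the low-count filter, 2 without replicate 3 of each group, and 0 to 3 with 1 library left out. Chad and Alpl were gained with DESeq2 and with the GC correction, which also gained Enpp1 (adjusted p = 0.0497). The adjusted p of Bmp4 ran from 0.00107 to 0.0934, that of Chad from 0.00731 to 0.139 and that of Alpl from 0.0245 to 0.161. The sign turned for Bmp2 (0.00052 without young replicate 4, from -0.31 to 0.00052 with any 1 library left out). The Runx2 to Sox9 log2 ratio difference ranged from -0.13 to 0.16 with 1 library left out, and turned positive without young replicate 1 (0.030), young replicate 5 (0.16), old replicate 2 (0.058) and old replicate 4 (0.075). Other pathway genes called higher numbered 5 to 10 with 1 library left out and 7 without replicate 3 of each group. Those called lower numbered 14 to 23. Comp, Ahsg, Nt5e and Vcan were not called without the low-count filter, Comp not with the GC and length correction and Ahsg not with limma-voom. The difference in the blood marker sum turned positive in counts scaled to library size (1.45) and without young replicate 1 (300.3) or 3 (240.9), or old replicate 1 (360.2), 3 (87.4) or 4 (217.3), and that of skeletal muscle without young replicate 2 (14.5). With 1 library left out these differences ranged from -541 to 360 and from -197 to 14.5. The cause of these shifts was not tested. Scaling moved the median log2 fold change of all genes by at most 0.03.

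No pairing by replicate number was evident over all tested genes: the correlations of same-numbered young and old libraries after removal of group means were -0.30, -0.07, 0.10, -0.05 and 0.13. The labels name no pairs, and pairing for single genes was not tested. With the replicate block, 5 of the 10 genes were higher (Spp1 added, log2 fold change 2.78, edgeR adjusted p = 4.21e-06) and 1 lower (Chad at -2.15, with Bmp4 at -0.59 not called), 10 and 17 of the other pathway genes were higher and lower, and 1261 of all genes were called. None of the 10 genes was lost to the low-count filter, so that no separate values of low-count members were needed. Depth limits Chad, Runx2 and Sox9 most, at 1 to 118 reads per library.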
